A study of Arabidopsis thaliana with 20 samples.

Results

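Class III peroxidases are secreted plant enzymes that use hydrogen peroxide to oxidise phenolic compounds and wall proteins, and some of them can also produce reactive oxygen in the cell wall. Through these reactions they link monolignols into lignin, join extensins (structural wall proteins) to each other, and either stiffen or loosen the growing wall. In flowers they act, among other places, in vessels, in the tapetum (the cell layer that feeds developing pollen) and in elongating organs. The levels of 49 class III peroxidase genes, chosen as a list of gene identifiers of this family, were followed in Arabidopsis inflorescences. They are 49 of the 37336 genes in the deposited table and 49 of 73 genes that the reference annotation or the list gives as class III peroxidases.

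The plants differed in DVL/RTFL genes, which encode small peptides that change organ shape when overexpressed. The series had 20 samples, 4 in each of 5 groups; the authors excluded 1 per group as an outlier, and 15 libraries with 3 biological replicates per group were analysed. The groups were wild type (Columbia, labelled Col. O), dvl1-1D (a dominant allele that raises DVL1), 35S:DVL8 (labelled 35S-.DVL8.2, with the 35S promoter of cauliflower mosaic virus before DVL8), the dvl1 quintuple mutant (dvl1 dvl8 dvl11 rtfl11 dvl19) and the rtfl9 quintuple mutant (dvl8 dvl11 rtfl9 rtfl11 dvl19). The quintuple mutants share 4 mutated genes. Material was whole inflorescences whose oldest flower was at anthesis, and the extraction protocol also names flowers after anthesis. In such bulk samples, fewer cells of a type and less RNA per cell cannot be told apart.

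Each library held between 22471893 and 36589877 reads assigned to genes. DVL1 (RTFL18 in the annotation) had 0 RPKM in every wild-type library and 525 to 612 RPKM in dvl1-1D, and DVL8 (RTFL7) had 0.0386 to 0.0616 RPKM in wild type and 152 to 173 RPKM in 35S:DVL8 (RPKM: reads scaled to gene length and library size). The labelled tissue carried its markers: the 6 floral organ identity genes summed to 347 to 423 RPKM over all libraries. Replicate 4 of the rtfl9 quintuple stood apart within its group: 4 peroxidases (AT3G32980, PRX52, AT5G19880 and AT5G64110) were under 1/2 of both other replicates there, and replicate 4 of the dvl1 quintuple was so for 2 (AT3G03670 and AT4G11290). Each change is given as the difference of mean log2(RPKM + 1) with its SE, a scale on which genes of low level show less than their true change. Adjusted p-values come from a limma fit of 20223 genes, with a call under 0.05 after Benjamini-Hochberg adjustment.

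Peroxidase RNA in the inflorescence was dominated by a few genes. Averaged over the libraries, 10 members reached 10 RPKM or more, 15 lay between 1 and 10, 14 between 0.1 and 1, and 10 under 0.1. PRXR1 (AT4G21960, chromosome 4, 11646109 to 11648644 of TAIR10.1, minus strand) alone made up 40.8% of the summed RPKM of the 49 genes in wild type, and between 39.3% and 42.9% in the other groups. PRXCB (AT3G49120, chromosome 3, 18207651 to 18210333, plus strand), a peroxidase of the apoplastic oxidative burst, followed with 14.5% in wild type. AT1G44970 held 10.6%, AT1G71695 8.18% and AT5G51890, a peroxidase of lignifying vessels, 4.6%. Over all libraries PRXR1 stayed above 242 RPKM, PRXCB lay between 79.1 and 106.2 RPKM, and AT5G51890 between 27.2 and 40.8 RPKM, so these ranges were apart. AT1G44970 (60.7 to 84.1 RPKM) overlapped both PRXCB above it and AT1G71695 (54.4 to 66.7 RPKM) below it in this order.

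**Figure D1:**
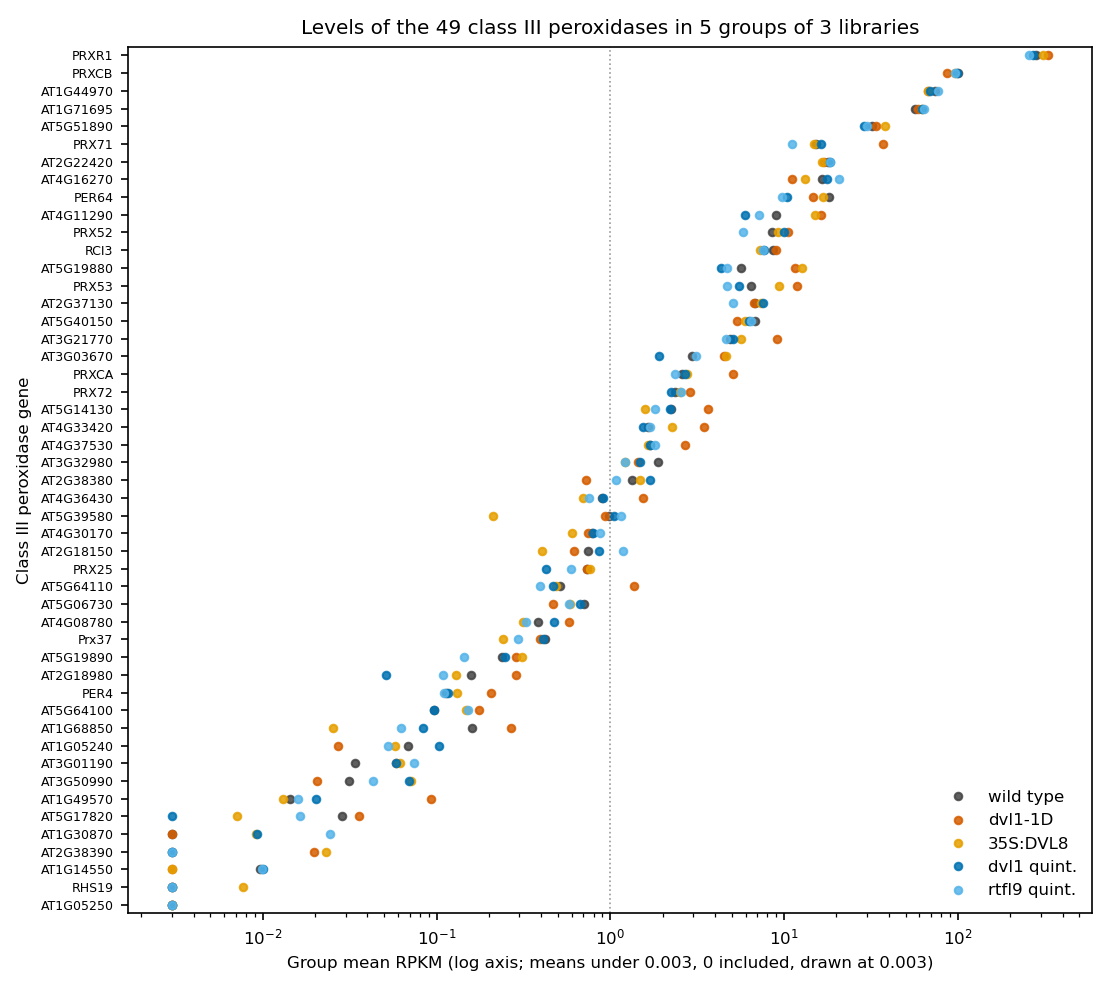
Group mean RPKM (log axis) of each of the 49 class III peroxidases, 1 point per group of 3 libraries, ordered by the mean over all libraries; the dotted line marks 1 RPKM, and means under 0.003, 0 included, are drawn at 0.003. PRXR1 stands above all others in every group, and the lower rows hold the genes with few or no reads.

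The most abundant members differed little between groups. PRXR1 measured 266.1, 304.5 and 276.7 RPKM in wild type, against 349.2, 307.5 and 335.2 in dvl1-1D. The levels were 300.4, 347.4 and 274.8 RPKM in 35S:DVL8, 265.8, 270.5 and 274.4 in the dvl1 quintuple, with 255.7, 270.6 and 242.6 in the rtfl9 quintuple. All dvl1-1D libraries lay above all wild-type libraries, by a small margin, and PRXR1 passed the test there (0.23 ± 0.08, adjusted p = 0.0391). That call was lost without wild type replicate 1 or 3 (adjusted p = 0.139 and 0.104), without dvl1-1D replicate 1 or 3 (0.138 and 0.0926), and with median-of-ratios scaling (0.0872). PRXCB measured 106.2, 97.6 and 96.7 RPKM in wild type, against 99.7, 79.1 and 81.2 in dvl1-1D, so the groups overlapped (-0.21 ± 0.08, adjusted p = 0.0527). PRXCB passed as lower without dvl1-1D replicate 1 (-0.32, adjusted p = 0.0038) or rtfl9 quintuple replicate 4 (0.0381), with array weights (0.029), median-of-ratios scaling (0.0345) or the replicate block (0.0355), and by voom (0.0419). In the other groups PRXCB ranged from 88.2 to 101.3 RPKM. AT1G71695 stood at 56.7 ± 3.58 RPKM (SD, n = 3) in wild type and between 58.7 and 63.4 RPKM on average in the other groups, with adjusted p of 0.168 to 0.576 against wild type by limma. AT5G51890 stood at 31.9 ± 1.43 RPKM in wild type, against 33.7 ± 5.21, 38.1 ± 2.34, 28.7 ± 1.76 and 30.1 ± 0.94 in dvl1-1D, 35S:DVL8, the dvl1 quintuple and the rtfl9 quintuple, and no difference from wild type passed the test (adjusted p = 0.247 to 0.71).

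Against wild type, dvl1-1D was the line in which peroxidases were called in number. Of the 49 genes, 29 passed the filter on low values (1 RPKM or more in 3 or more libraries). In dvl1-1D, 10 were higher and 2 lower, 41.4% of the 29, where 30.8% of all tested genes were called. By direction, 34.5% of the tested members were higher, beside 16.7% of all genes, and 6.9% were lower, beside 14%. The median change of the 29 was 0.207, beside 0.024 for all genes tested. AT5G64110, AT4G36430 and AT2G18150 would not have passed the filter without the dvl1-1D libraries, so the first pair is among the tested genes through the group where it was high. With a filter on the mean over all libraries, 8 members were higher and 2 lower, and the share of all genes called with it was not counted. Among all genes the share of calls that were higher was 54.4%, and it was 46.1% with median-of-ratios scaling and 44.3% with quantile normalization. Among the peroxidases the former gave 9 higher and 3 lower and the latter 10 higher and 2 lower.

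PRX71 (AT5G64120, chromosome 5, 25659257 to 25661007, minus strand), a peroxidase that adds to lignin and limits cell expansion when the wall is damaged, had the largest change of the 29 in dvl1-1D. Its levels were 15.9, 15.3 and 14.4 RPKM in wild type, against 46.3, 36.0 and 29.01 in dvl1-1D. They were 16.3, 12.3 and 16.0 RPKM in 35S:DVL8, 14.7, 19.2 and 14.7 in the dvl1 quintuple, with 13.8, 10.5 and 9.05 in the rtfl9 quintuple. All dvl1-1D libraries lay above every library of the other groups (1.21 ± 0.17 against wild type, adjusted p = 0.000156), whereas 35S:DVL8 overlapped wild type (-0.04 ± 0.17, adjusted p = 0.974). The rtfl9 quintuple lay below wild type in all libraries but did not pass the test (-0.44 ± 0.17, adjusted p = 0.232).

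PRX71 lies in a row with related genes on the minus strand of chromosome 5, beside AT5G64100 (25650567 to 25652247) and AT5G64110 (25654074 to 25656067). AT5G64110, whose coding sequence is 61.1% identical to that of PRX71, measured 0.49, 0.416 and 0.627 RPKM in wild type, against 1.3, 1.7 and 1.11 in dvl1-1D. It measured 0.475, 0.454 and 0.539 RPKM in 35S:DVL8, 0.413, 0.661 and 0.324 in the dvl1 quintuple, with 0.596, 0.53 and 0.0621 in the rtfl9 quintuple. As with PRX71, all dvl1-1D libraries lay above all others (0.64 ± 0.16, adjusted p = 0.00708; 1.26 with a pseudocount of 0.1, adjusted p = 0.0517). AT5G64110 reached 1 RPKM only in the 3 dvl1-1D libraries, so it was below the filter when any of them was left out. AT5G64100, a root hair peroxidase, was under the filter, with 80 reads over all libraries. The 250 bases before the RefSeq gene start of both called neighbours are shown because these genes rose together in dvl1-1D and not in 35S:DVL8 (chr5:25661008-25661257 and chr5:25656068-25656317, TAIR10.1, minus strand). Capitals mark the W-box core TTGAC, the letters bound by WRKY transcription factors, or its reverse complement GTCAA.
PRX71: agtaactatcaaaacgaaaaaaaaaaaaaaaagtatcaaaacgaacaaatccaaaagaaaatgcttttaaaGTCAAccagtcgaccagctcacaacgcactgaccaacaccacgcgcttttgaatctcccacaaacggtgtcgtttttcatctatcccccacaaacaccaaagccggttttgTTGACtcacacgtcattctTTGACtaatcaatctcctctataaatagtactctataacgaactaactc
AT5G64110: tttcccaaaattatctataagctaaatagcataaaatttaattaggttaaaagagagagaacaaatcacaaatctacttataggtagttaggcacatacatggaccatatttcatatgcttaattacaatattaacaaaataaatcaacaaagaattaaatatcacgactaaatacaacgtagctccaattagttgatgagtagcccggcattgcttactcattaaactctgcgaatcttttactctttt
The window of PRX71 held the core 3 times and that of AT5G64110 did not hold it. Over windows of this length, 44.9% of 27443 protein-coding genes held the core on either strand, and so did 23 of the 49 peroxidases (46.9%). Of the 10 members higher in dvl1-1D, 3 held it. The G-box CACGTG was in 6.49% of all windows and in 0 of the 49, and an AC element known from lignin genes (the letters ACCTACC on either strand, or with one base changed, that is ACCAACC and also ACCTAAC) was in 6.12% of all and in 4 of the 49. These matches describe letters only.

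PRX53 (AT5G06720, chromosome 5, 2077382 to 2079005, minus strand), a peroxidase linked to cell elongation and lignin, was the 1 member that passed the test in more than 1 line against wild type. It measured 6.95, 6.33 and 6.1 RPKM in wild type, 12.9, 11.1 and 11.7 in dvl1-1D and 9.53, 8.87 and 9.58 in 35S:DVL8. It measured 4.89, 6.09 and 5.6 RPKM in the dvl1 quintuple, with 4.65, 5.29 and 4.08 in the rtfl9 quintuple. Both overexpression lines lay above wild type, and both quintuple mutants below it, in every library, and dvl1-1D lay above 35S:DVL8. The rise in dvl1-1D was 0.79 ± 0.09 (adjusted p = 3.42e-05). In 35S:DVL8 the difference was 0.47 ± 0.09 and missed the threshold (adjusted p = 0.0556), though it passed with array weights (0.0178), by voom on the recovered reads (0.0276), and without 35S:DVL8 replicate 1 (0.046) or rtfl9 quintuple replicate 2 or 4 (0.0489 and 0.0394). The fall in the rtfl9 quintuple passed (-0.40 ± 0.09, adjusted p = 0.0452) but was lost in 10 of 16 alternatives. Among these were the fits without wild type replicate 1, 2 or 3 (adjusted p = 0.12, 0.167 and 0.125) and without rtfl9 quintuple replicate 1 or 4 (0.115 and 0.151). In the dvl1 quintuple the difference was -0.20 ± 0.09 (adjusted p = 0.635). Its tandem neighbour AT5G06730, 80.8% identical in coding sequence, was under the filter, with group means of 0.466 to 0.703 RPKM. Of the 5 members listed for cell expansion, organ size or the seed coat, 2 were tested, and PRX53 was the 1 called in dvl1-1D; of the 4 root hair members 1, AT5G39580, was tested, and 0 were called there by limma.

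**Figure D2:**
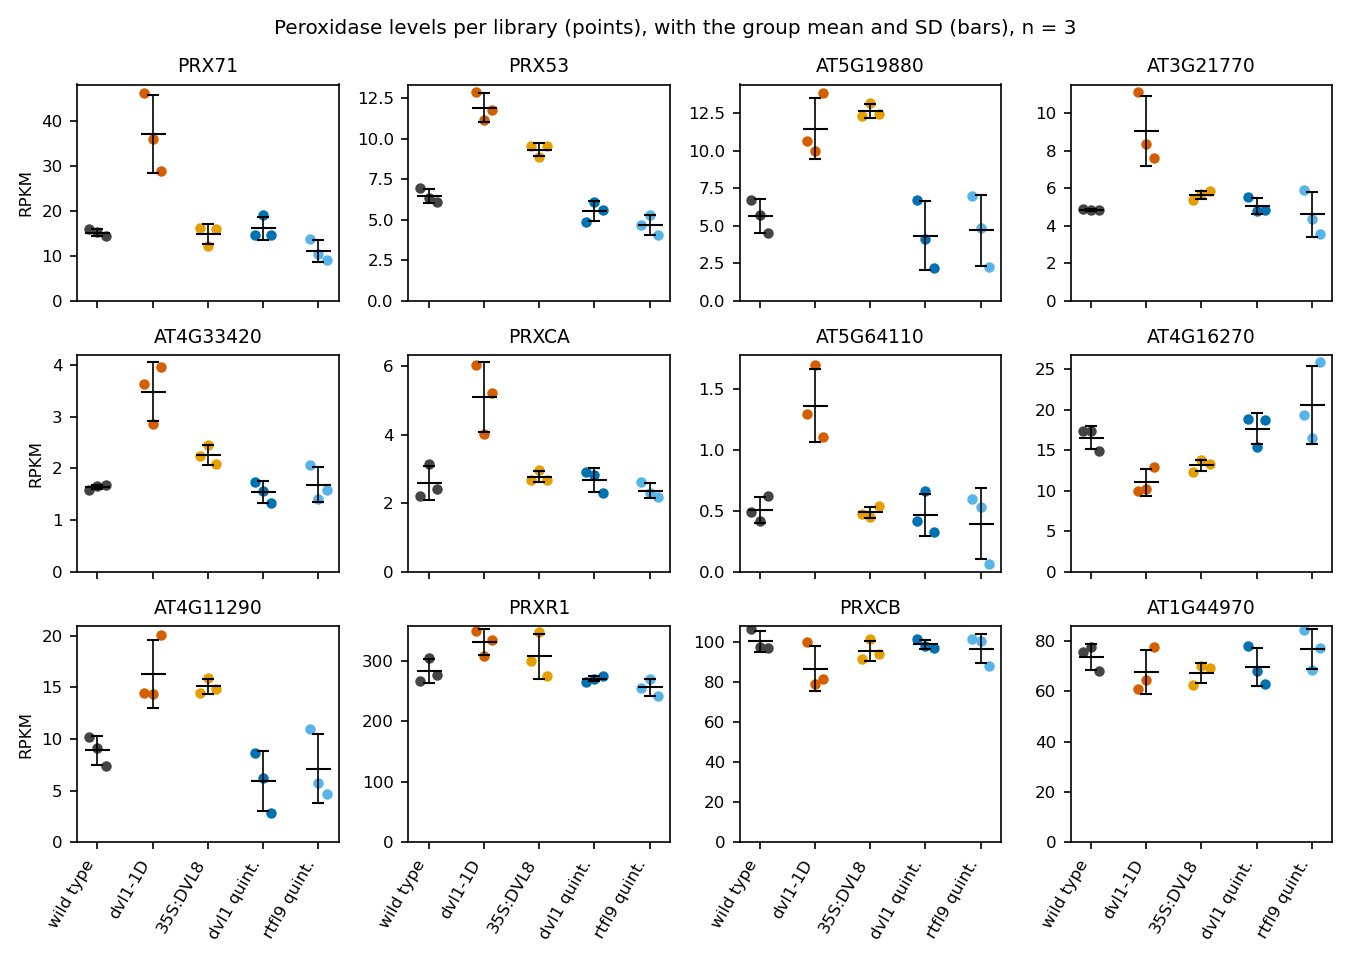
RPKM of 12 class III peroxidases in each library (points, 3 per group), with the group mean and SD as bars; axes start at 0. PRX71, AT3G21770, PRXCA and AT5G64110 are high in dvl1-1D alone, AT5G19880, AT4G11290 and PRX53 are high in both overexpression lines, and AT4G16270 is low in both.

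Other members that rose in dvl1-1D had low to moderate levels. AT3G21770 (chromosome 3, 7673276 to 7674839, plus strand) measured 4.9, 4.85 and 4.82 RPKM in wild type, against 11.2, 8.39 and 7.63 in dvl1-1D. In the other groups AT3G21770 ranged from 3.56 to 5.91 RPKM, so only the dvl1-1D libraries were set apart (0.76 ± 0.14, adjusted p = 0.00091). AT4G33420 (chromosome 4, 16084713 to 16086388, plus strand), a peroxidase of lignifying vessels, measured 1.58, 1.65 and 1.68 RPKM in wild type, 3.63, 2.85 and 3.96 in dvl1-1D and 2.24, 2.45 and 2.08 in 35S:DVL8. AT4G33420 was highest in dvl1-1D without overlap (0.76 ± 0.11, adjusted p = 0.000263), and 35S:DVL8 lay above wild type in all libraries without passing the test (0.30 ± 0.11, adjusted p = 0.321). Its gene overlaps 78 bases of BAK1 on the other strand, counted without strand, and BAK1 rose less in dvl1-1D (0.17, adjusted p = 0.0167).

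PRXCA and PRXCB are close relatives known for the oxidative burst of the cell wall, and PRXCA rose in dvl1-1D while PRXCB missed the threshold on the lower side, passing it under the alternatives given above. PRXCA (AT3G49110, chromosome 3, 18200587 to 18203265, plus strand) measured 2.22, 3.16 and 2.41 RPKM in wild type, against 6.05, 4.01 and 5.22 in dvl1-1D. In the other groups PRXCA ranged from 2.19 to 2.96 RPKM, so the dvl1-1D libraries lay above all others (0.76 ± 0.13, adjusted p = 0.000579), while PRXCB had -0.21 as above. Their coding sequences are 90.4% identical, differ at 102 aligned positions and share no identical run longer than 111 bases, so a read of that length or less may fit either gene. PRXCB stood at 100.2 ± 5.26 RPKM in wild type and PRXCA at 2.6 ± 0.497, and the sources used here do not say how shared reads were counted. The stretch of 60 coding bases with the most differences is shown, counted from the start codon (bases 714 to 773 of PRXCA and 711 to 770 of PRXCB, coding strand, TAIR10.1); capitals mark the 16 positions at which they differ.
PRXCA: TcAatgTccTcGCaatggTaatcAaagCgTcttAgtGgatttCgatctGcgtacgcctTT
PRXCB: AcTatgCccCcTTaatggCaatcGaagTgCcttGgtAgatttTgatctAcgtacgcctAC

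The smaller rises in dvl1-1D were AT4G37530 and AT4G36430. AT4G37530 went from 1.7 ± 0.241 to 2.68 ± 0.466 RPKM (SD, n = 3; 0.44 ± 0.12, limma adjusted p = 0.013; 0.0551 without wild type replicate 1 and 0.0601 without dvl1-1D replicate 3). Its copy AT4G37520, 92.4% identical and outside the 49, went from 5.41 to 7.39 RPKM (0.38 ± 0.12, adjusted p = 0.0247), so reads of this pair may be shared. AT4G36430 went from 0.899 ± 0.112 to 1.54 ± 0.24 RPKM (SD, n = 3; 0.42 ± 0.10, limma adjusted p = 0.00798; 0.71 with a pseudocount of 0.1). Beside AT4G16270, described with the tapetum genes, AT5G40150 was the other member that fell, at 6.11, 7.27 and 7.01 RPKM in wild type, against 5.03, 5.06 and 5.91 in dvl1-1D, without overlap (-0.30 ± 0.07, adjusted p = 0.00544).

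AT5G19880 and AT4G11290 had similar levels in both overexpression lines. AT5G19880 (chromosome 5, 6720384 to 6722477, minus strand) measured 6.75, 5.75 and 4.51 RPKM in wild type, 10.7, 9.98 and 13.8 in dvl1-1D and 12.3, 13.2 and 12.5 in 35S:DVL8. It measured 6.73, 4.14 and 2.16 RPKM in the dvl1 quintuple, with 6.96, 4.84 and 2.28 in the rtfl9 quintuple. Both overexpression lines lay above all other libraries, and the quintuple mutants overlapped wild type with a wide spread. AT5G19880 passed the test in dvl1-1D (0.91 ± 0.31, adjusted p = 0.0369) and not in 35S:DVL8 (1.05 ± 0.31, adjusted p = 0.158; 0.0326 when only the groups compared were fitted). The dvl1-1D call was lost without wild type replicate 2 or 3 (0.0772 and 0.124) or any dvl1-1D replicate (0.0698, 0.054 and 0.116). It was also lost with a pseudocount of 0.1 and with no filter on low values, and was kept in 8 of 15 alternatives. The wide spread of the quintuple mutants enters this test, since all groups share an estimate of the spread.

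AT4G11290 (chromosome 4, 6869863 to 6871705, plus strand), known in roots as a target of the growth regulator UPBEAT1, was chosen for description after its values were seen. It measured 10.2, 9.11 and 7.45 RPKM in wild type, 14.5, 14.4 and 20.1 in dvl1-1D and 14.5, 15.9 and 14.9 in 35S:DVL8. It measured 8.63, 6.29 and 2.9 RPKM in the dvl1 quintuple, with 11.0, 5.75 and 4.72 in the rtfl9 quintuple. Again both overexpression lines lay above every other library. Against wild type the differences were 0.80 ± 0.29 in dvl1-1D (adjusted p = 0.0525) and 0.71 ± 0.29 in 35S:DVL8 (adjusted p = 0.397). The dvl1-1D difference passed without dvl1 quintuple replicate 4 (0.0163) or 2 (0.0341), or without rtfl9 quintuple replicate 1 or 4 (0.0265 and 0.0413). It passed without both 35S:DVL8 replicate 2 and rtfl9 quintuple replicate 4 too (0.0446). Array weights (0.0262), only the groups compared (0.00287), the replicate block (0.013) and voom (0.0177) also gave a call. AT4G11290 and AT5G19880 are only 51.3% identical in coding sequence and lie on different chromosomes. The 250 bases before the gene starts of AT5G19880 and AT4G11290 are given because these members were high in both lines (chr5:6722478-6722727, minus strand, and chr4:6869613-6869862, plus strand, TAIR10.1), all in lower case since neither held the W-box core.
AT5G19880: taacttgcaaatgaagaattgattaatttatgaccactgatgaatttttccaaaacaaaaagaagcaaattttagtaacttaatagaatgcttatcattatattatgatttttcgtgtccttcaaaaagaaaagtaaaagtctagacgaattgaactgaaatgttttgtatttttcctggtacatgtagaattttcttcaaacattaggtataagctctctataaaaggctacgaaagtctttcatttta
AT4G11290: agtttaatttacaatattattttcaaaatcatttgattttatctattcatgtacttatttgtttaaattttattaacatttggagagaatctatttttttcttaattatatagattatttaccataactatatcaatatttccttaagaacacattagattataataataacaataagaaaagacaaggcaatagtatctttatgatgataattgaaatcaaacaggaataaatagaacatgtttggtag

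Of the pair of tapetum peroxidases, AT4G16270 was lower in dvl1-1D and AT1G44970 did not pass the test; the difference between them was not tested. AT1G44970 (PRX9, chromosome 1, 17002089 to 17003867, plus strand) and AT4G16270 (PRX40, chromosome 4, 9205080 to 9206483, plus strand) are known to act on extensins in the tapetum and are needed together for pollen development; their coding sequences are 55.9% identical. AT4G16270 measured 17.4, 17.4 and 14.9 RPKM in wild type, 9.96, 10.2 and 12.9 in dvl1-1D and 12.4, 13.7 and 13.3 in 35S:DVL8. It measured 18.8, 15.5 and 18.8 RPKM in the dvl1 quintuple, with 19.4, 16.5 and 25.9 in the rtfl9 quintuple. Every overexpression library lay below every library of the other groups, and AT4G16270 fell in dvl1-1D (-0.55 ± 0.13, adjusted p = 0.00704), while 35S:DVL8 did not pass (-0.31 ± 0.13, adjusted p = 0.425). AT1G44970 measured 75.5, 77.6 and 67.8 RPKM in wild type, against 60.7, 64.6 and 77.4 in dvl1-1D. It measured 62.6, 70.0 and 69.2 RPKM in 35S:DVL8, 77.7, 68.0 and 62.8 in the dvl1 quintuple, with 84.1, 68.3 and 77.3 in the rtfl9 quintuple. These groups all overlapped, and AT1G44970 did not pass the test in any comparison with wild type (-0.13 to 0.05, adjusted p = 0.359 to 0.882). A transcribed pseudogene overlaps 869 bases of AT4G16270 on the other strand and had a group mean of at most 0.0337 RPKM.

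Tapetum markers, 8 of the 15 tested, and AT4G16270 were lower in the overexpression lines than in the quintuple mutants. In dvl1-1D against wild type, only AT4G16270 of these genes passed as lower. Of 16 markers 15 were tested. When both overexpression lines were compared with both quintuple mutants, 8 were lower and 1 higher, beside 17.2% and 14.8% of all genes. AT4G16270 was lower by the test as well (-0.61 ± 0.10, limma adjusted p = 0.000423). Among the lower markers were MYB80 (-0.71 ± 0.18, adjusted p = 0.00832) and AMS (-0.44 ± 0.09, adjusted p = 0.00316), transcription factors of the tapetum, ABCG26 (-0.60 ± 0.14, adjusted p = 0.00561), a transporter for pollen wall precursors, and AT5G07230 (-0.60 ± 0.14, adjusted p = 0.00513). GRP17, a pollen coat protein made late in the tapetum, was higher (0.56 ± 0.07, adjusted p = 0.00013). Against wild type in dvl1-1D, where AT4G16270 also fell, 0 of the 15 markers were lower and 1 was higher. The summed RPKM of the 16 markers, much of it GRP17, was 784 to 849 in wild type, 927 to 1194 in dvl1-1D, 860 to 1034 in 35S:DVL8, 891 to 939 in the dvl1 quintuple and 832 to 1095 in the rtfl9 quintuple, and none was at 0 in all libraries. Their part in the result was not tested.

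**Figure D3:**
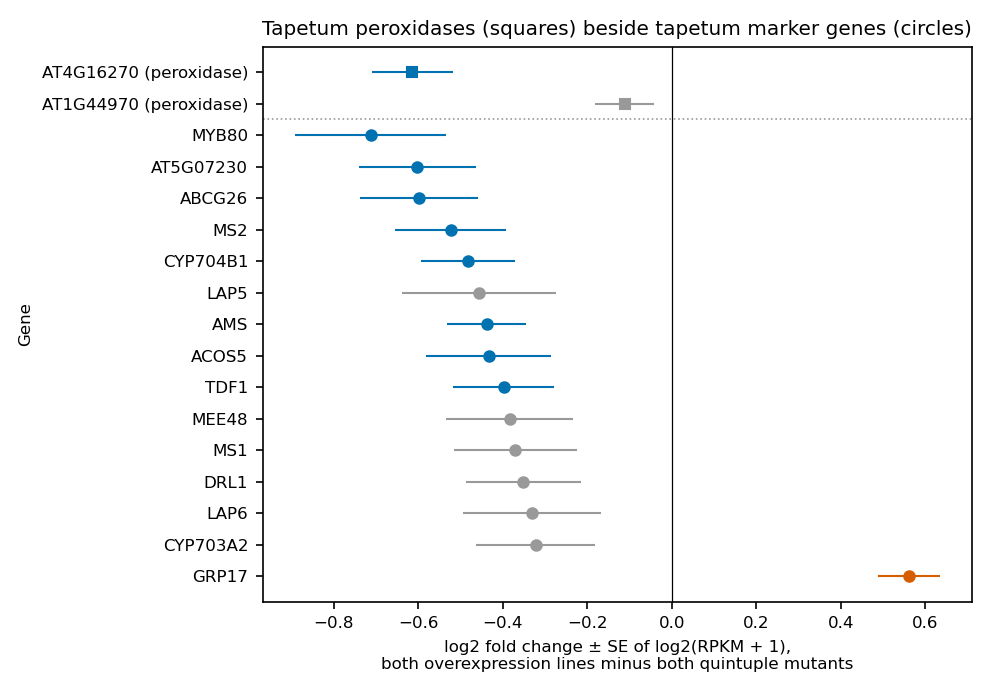
Log2 fold change ± SE of log2(RPKM + 1) between both overexpression lines and both quintuple mutants (6 libraries each), for the tapetum peroxidases (squares) and the 15 tested tapetum markers (circles); blue is lower and orange higher at an adjusted p under 0.05, grey is not past it. AT4G16270 (-0.61) lies among the lower markers, AT1G44970 (-0.11) near 0, and GRP17 (0.56) on the other side.

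In the lignin and suberin group, which is defined by literature roles, 7 of 10 members were tested and 2, PRX71 and AT4G33420, rose in dvl1-1D. The other 5 tested members did not pass the test there: PRX72, a stem lignin peroxidase, had 2.37 ± 0.323 RPKM in wild type and 2.88 ± 0.238 in dvl1-1D (SD, n = 3; 0.21 ± 0.12, limma adjusted p = 0.205), and AT2G22420 stayed between 15.8 and 20.6 RPKM in all libraries. PRX52 and PER64, a lignin peroxidase of the stem and that of the root Casparian strip, were chosen after their values were seen because they varied most within groups. PRX52 measured 8.98, 6.58 and 1.84 RPKM in the rtfl9 quintuple and 6.96 to 13.2 in all other libraries, so replicate 4 of that mutant was the low library (-0.66 ± 0.34 against wild type, adjusted p = 0.358). PER64 measured 13.8, 24.3 and 16.2 RPKM in wild type, 25.9, 15.3 and 9.11 in 35S:DVL8 and 3.8, 17.8 and 7.41 in the rtfl9 quintuple. It measured 14.8, 13.3 and 15.7 RPKM in dvl1-1D, and 12.2, 8.77 and 10.3 in the dvl1 quintuple. The dvl1 quintuple lay below wild type and dvl1-1D in every library (-0.71 ± 0.40 against wild type, adjusted p = 0.708), and the rtfl9 quintuple overlapped both (-1.03 ± 0.40, adjusted p = 0.241); neither difference passed the test. Beside PRX71 and AT4G33420, 4 of 10 markers of xylem and secondary walls were higher in dvl1-1D, 0 were lower and 6 did not pass, where 16.7% of all genes were higher. The higher markers were led by the vessel protease XCP2 (0.50 ± 0.05, adjusted p = 2.71e-05), and the summed RPKM of the 10 was 134 to 136 in wild type and 163 to 177 in dvl1-1D. None was at 0 in all libraries, and their part in the result was not tested.

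In 35S:DVL8 against wild type, 0 of the 29 members passed the test by limma, where 0.138% of all genes did. At an unadjusted p under 0.05, 7 members were higher and 4 lower, beside 864 and 1261 of the 20223 genes tested. By voom 3 members were called (PRX53, AT5G19880 and AT5G39580), and the share of all genes called by voom was not counted. AT5G39580, a peroxidase of root hairs, was chosen after its values were seen. It measured 1.19, 0.653 and 1.12 RPKM in wild type and 0.111, 0.224 and 0.3 in 35S:DVL8. In the other groups AT5G39580 ranged from 0.673 to 1.41 RPKM, so the 35S:DVL8 libraries lay below all others (-0.71 ± 0.16, adjusted p = 0.0794; by voom -2.17, adjusted p = 0.0405). Its relative PRX71, 75.5% identical in coding sequence, did not share this pattern in 35S:DVL8 (-0.04 ± 0.17). The members AT3G03670, AT4G33420 and AT5G51890 were among those with raised values in 35S:DVL8 that missed the threshold (0.51 ± 0.22, 0.30 ± 0.11 and 0.25 ± 0.08; limma adjusted p = 0.438, 0.321 and 0.247).

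In the dvl1 quintuple against wild type, 0 of 29 were called by limma, where 0.0297% of all genes were. At an unadjusted p under 0.05, 1 member was higher and 2 lower, beside 818 and 750 of the 20223 genes tested. By voom 0 members were called. In the rtfl9 quintuple, PRX53 was the 1 member called, 3.45% of the 29, beside 1.23% of all genes. There 1 member was higher and 5 lower at an unadjusted p under 0.05, beside 1830 and 1359 of all 20223 genes. The quintuple mutants differed from each other in 0 members, where 0.0148% of all genes were called, and voom again called 0. At an unadjusted p under 0.05, 4 members were higher and 1 lower in the dvl1 quintuple, beside 388 and 499 of all 20223 genes. PRX71 had the smallest p of these (16.2 ± 2.57 RPKM in the dvl1 quintuple, against 11.1 ± 2.45 in the rtfl9 quintuple; 0.51 ± 0.17, limma adjusted p = 0.996).

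**Figure D4:**
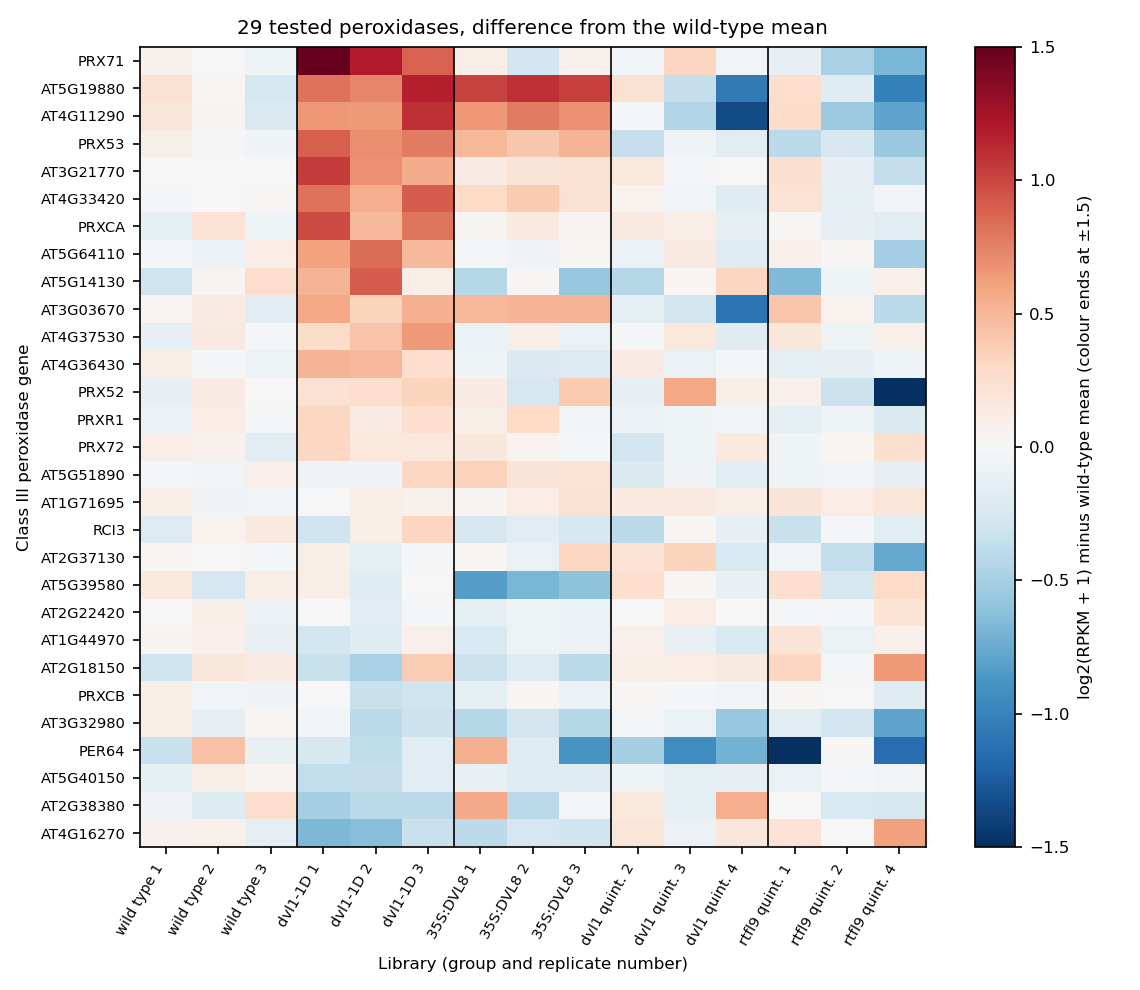
Difference of log2(RPKM + 1) from the wild-type mean for the 29 tested peroxidases (rows, ordered by the change in dvl1-1D) in each of the 15 libraries (columns); red is higher, blue lower, and the colour ends at ±1.5. The dvl1-1D columns are red in the upper rows, the 35S:DVL8 columns share this in AT5G19880, AT4G11290, PRX53 and AT3G03670, and single dark cells mark PRX52 and PER64 in rtfl9 quintuple libraries.

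The direct comparison of dvl1-1D with 35S:DVL8 tests whether the rises described above differed between these lines. In it, 10 members (34.5%) were higher in dvl1-1D, beside 18.6% of all genes, and 0 were lower by limma, beside 13.8%; in either direction 32.4% of all genes were called. The 10 include AT5G64110 and AT4G36430, which passed the filter on low values through the dvl1-1D libraries; with a filter on the mean over all libraries, 7 members were higher and 0 lower. At an unadjusted p under 0.05, 10 were higher and 2 lower, beside 5060 and 3641 of all 20223 genes tested. By voom 10 members were higher and 0 lower. Shares of all genes were not counted for voom or for the filter on the mean. The largest difference was in PRX71 (1.25 ± 0.17, adjusted p = 0.000126), followed by AT5G14130 (0.83 ± 0.26, adjusted p = 0.023), PRXCA (0.68 ± 0.13, adjusted p = 0.00121), AT5G39580 (0.68 ± 0.16, adjusted p = 0.00603), AT5G64110 (0.66 ± 0.16, adjusted p = 0.00579), AT3G21770 (0.58 ± 0.14, adjusted p = 0.00518) and AT4G36430 (0.58 ± 0.10, adjusted p = 0.000985). AT4G37530 (0.48 ± 0.12), AT4G33420 (0.45 ± 0.11) and PRX53 (0.32 ± 0.09) were also higher in dvl1-1D (limma adjusted p = 0.00821, 0.0076 and 0.0127). The PRX53 call was lost without dvl1-1D replicate 1 (0.0586). AT5G14130, chosen after its values were seen, measured 3.51, 4.99 and 2.42 RPKM in dvl1-1D and 1.37, 2.23 and 1.14 in 35S:DVL8. Its lowest dvl1-1D library lay just above its highest 35S:DVL8 library, its gene overlaps 7 bases of AT5G14120, which rose in dvl1-1D (14.6 to 20.6 RPKM on average), and the call was lost without dvl1-1D replicate 1 or 2 (0.0563 and 0.103) or 35S:DVL8 replicate 1 or 3 (0.0659 and 0.0832). AT5G19880 and AT4G11290 did not differ by the test (-0.14 ± 0.31 and 0.09 ± 0.29, limma adjusted p = 0.762 and 0.846).

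Both overexpression lines together were also compared with both quintuple mutants. Wild type does not enter this difference, so an order from raised to reduced DVL/RTFL activity was not tested. In this comparison 11 members were higher and 4 lower, 51.7% of the 29, where 32% of all genes were called. The higher members were 37.9%, beside 14.8% of all genes, and the lower 13.8%, beside 17.2%. The higher members include AT5G64110, which passed the filter on low values only through the dvl1-1D libraries, where it was high. Its mean over all libraries was 0.646 RPKM, so a filter on the mean level leaves it out. AT5G19880 (1.33 ± 0.22, adjusted p = 0.000581) and AT4G11290 (1.23 ± 0.21, adjusted p = 0.000713) changed most. PRX53 came next and had the smallest adjusted p (0.93 ± 0.06, 1.77e-06), and its 12 libraries were separated by group. It was followed by PRX71 (0.76 ± 0.12, adjusted p = 0.000425) and AT3G03670 (0.73 ± 0.16, adjusted p = 0.00332). For PRX71, AT3G21770, PRXCA and AT5G64110 the value averages a rise in dvl1-1D with levels in 35S:DVL8 close to wild type. AT3G03670 was chosen after its values were seen and measured 4.92, 3.97 and 4.73 RPKM in dvl1-1D and 4.58, 4.62 and 4.63 in 35S:DVL8, against 2.61, 2.27 and 0.851 in the dvl1 quintuple, with 4.28, 3.1 and 1.97 in the rtfl9 quintuple. The lines overlapped in 1 rtfl9 quintuple library. Replicate 4 of the dvl1 quintuple was the low library of its group for AT3G03670 and AT4G11290.

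**Figure D5:**
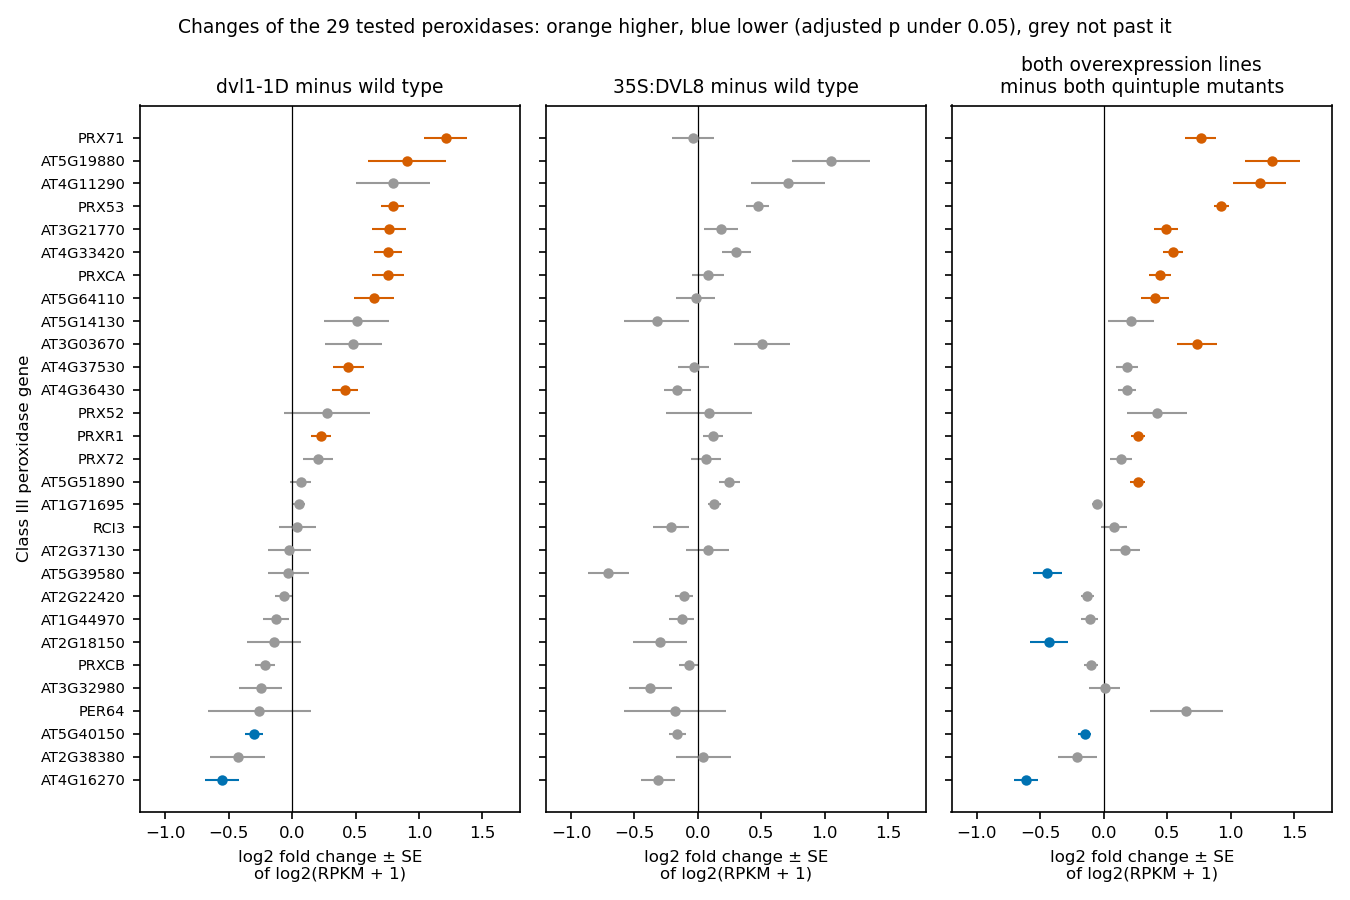
Log2 fold change ± SE of log2(RPKM + 1) of the 29 tested peroxidases in dvl1-1D against wild type, 35S:DVL8 against wild type (3 libraries each) and both overexpression lines against both quintuple mutants (6 each); orange is higher and blue lower at an adjusted p under 0.05, grey is not past it. In dvl1-1D 10 are orange and 2 blue, in 35S:DVL8 none is coloured, and in the last panel 11 are orange and 4 blue.

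The remaining higher members of that comparison had smaller changes, between 0.27 and 0.55: AT4G33420, AT3G21770, PRXCA, AT5G64110, PRXR1 and AT5G51890. The AT5G64110 call was lost with the replicate block (0.27, adjusted p = 0.0999). PRXR1 (0.27 ± 0.05, adjusted p = 0.00223) and AT5G51890 (0.27 ± 0.06, adjusted p = 0.00366), both abundant, changed by the same small amount. The lower members were AT4G16270, AT5G39580 (-0.44 ± 0.11, adjusted p = 0.00937), AT2G18150 (-0.43 ± 0.15, adjusted p = 0.0408) and AT5G40150 (-0.15 ± 0.05, adjusted p = 0.0334). For AT5G39580 the value averages the low 35S:DVL8 libraries with dvl1-1D libraries at the wild-type level (0.937 ± 0.182 and 0.987 ± 0.292 RPKM, SD, n = 3). AT2G18150, 91.7% identical to its neighbour AT2G18140, lost its call without any 1 of 7 libraries: dvl1-1D replicates 1 and 2, 35S:DVL8 replicates 1 and 3, and dvl1 quintuple replicates 2, 3 and 4 (0.0642 to 0.0962). It reached 1 RPKM only in dvl1-1D replicate 3 and rtfl9 quintuple replicates 1 and 4, so without any of these it was below the filter. Its call was also lost with no filter, with only the groups compared and with the replicate block. AT5G40150 lost its call without any 1 of 8: dvl1-1D replicates 1 and 2, 35S:DVL8 replicates 2 and 3, dvl1 quintuple replicates 2 and 4, and rtfl9 quintuple replicates 2 and 4 (0.055 to 0.0771). That call was also lost with no filter and with the replicate block.

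The genes around the peroxidases in the same pathways were read from lists of known roles. Of the 24 class III peroxidases outside the 49, 12 were tested. In dvl1-1D against wild type 2 were higher and 0 lower, AT2G34060 (0.58 ± 0.14, adjusted p = 0.00543) and AT4G37520. Among all genes tested, 16.7% were higher there and 14% lower. In the rtfl9 quintuple, where 1.23% of all genes were called, AT5G47000 fell from 53.1 ± 3.81 to 29.1 ± 2.99 RPKM (SD, n = 3). The change was -0.85 ± 0.14 (limma adjusted p = 0.0274). AT5G47000 was also lower in 35S:DVL8 (32.8 ± 7.8 RPKM, -0.70 ± 0.14, limma adjusted p = 0.0702). In the dvl1 quintuple it stood at 33.2 ± 4.01 RPKM, and neither of these lines passed the test against wild type. Of 8 mature pollen markers, 3 were lower in the rtfl9 quintuple, 0 were higher and 5 did not pass the test, beside the same 1.23% of all genes. The change was above 0 in 2 of the 8, TIP1;3 (8.71 to 9.63 RPKM) and ANX1 (4.41 to 4.43 RPKM). The summed RPKM of the 8 was 495 to 553 in wild type and 359 to 415 in the rtfl9 quintuple. None of these markers was at 0, and their part in the result was not tested. Those markers also separated dvl1-1D from 35S:DVL8, with 7 of 8 higher in dvl1-1D, beside 18.6% of all genes. Their sums were 551 to 746 RPKM in dvl1-1D and 334 to 473 in 35S:DVL8. AT5G47000 was higher in dvl1-1D as well (0.68 ± 0.14, limma adjusted p = 0.00302).

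The counts of the next lists in dvl1-1D stand beside 16.7% of all genes tested that were higher and 14% that were lower. The lists were not tested as sets. Among the sources of the peroxide substrate, the NADPH oxidases RBOH F (0.34 ± 0.07, adjusted p = 0.00152) and RHD2 (0.28 ± 0.10, adjusted p = 0.0392) rose in dvl1-1D, and 0 of the 6 tested fell. Among the scavengers, 3 of 9 tested catalases and ascorbate peroxidases fell and 0 rose. They were the chloroplast enzymes SAPX (78.4 ± 1.8 to 56.2 ± 4.38 RPKM, SD, n = 3; -0.48 ± 0.05, limma adjusted p = 3.42e-05) and TAPX (-0.30 ± 0.07, adjusted p = 0.00506) and the cytosolic APX1 (-0.22 ± 0.04, adjusted p = 0.00212). Of 17 monolignol synthesis genes 4 rose and 0 fell: HCT (0.25 ± 0.05, adjusted p = 0.00191), 4CL2 (0.25 ± 0.08, adjusted p = 0.0263), LysoPL2 (0.19 ± 0.04, adjusted p = 0.00531) and CAD5 (0.18 ± 0.06, adjusted p = 0.0491). Of 10 tested laccases, the other enzymes that join monolignols, 0 were called in dvl1-1D by limma, also without p adjustment (0 under 0.05). Without adjustment, 4624 of all 20223 genes were higher there and 3736 lower. Of 2 tested extensins, EXT4 rose (0.61 ± 0.17, adjusted p = 0.0162), and of 2 tested regulators of peroxidase genes 0 were called (also 0 before adjustment). In 35S:DVL8 and in the dvl1 quintuple 0 genes of these lists passed the test by limma against wild type.

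Between both overexpression lines and both quintuple mutants, the same lists gave other counts, beside 14.8% of all genes higher and 17.2% lower. The outside peroxidases had 2 higher and 1 lower of 12, the NADPH oxidases 2 and 0 of 6, and the monolignol genes 4 and 0 of 17. The laccases had 2 higher and 1 lower of 10, with LAC5 at 0.54 ± 0.16 (adjusted p = 0.0179), LAC11 at 0.16 ± 0.05 (adjusted p = 0.0335) and LAC1 at -0.60 ± 0.10 (adjusted p = 0.000584). Catalases and ascorbate peroxidases had 2 higher, CAT1 and CAT3, and 2 lower, SAPX and APX1, of 9. EXT4 was again higher (0.74 ± 0.12, adjusted p = 0.000675).

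The 20 members under the filter had between 0 and 395 reads each over all libraries, 7 of them under 20 reads, and no library above 1.05 RPKM. They include 3 of the 4 listed root hair peroxidases, AT1G05240, AT5G64100 and RHS19, with 66, 80 and 1 reads, and from the lignin and suberin list PER4 and PRX25, with 72 and 302 reads. AT4G30170 and PRX25 were the highest of these by mean, at 0.761 and 0.65 RPKM over all libraries. AT3G50990, known from the seed coat, had 26 reads. AT1G05250 had 0 reads in all libraries. Its coding sequence is identical over all 978 bases to that of AT1G05240, which lies 2577 bases away. Coding reads of these genes therefore cannot be told apart. The reference exons are longer, at 1492 bases in AT1G05250 and 2478 in AT1G05240. Whether the exon bases outside the coding sequence differ was not examined, so the 0 reads do not settle whether AT1G05250 was expressed. Prx37 and its neighbour AT4G08780 (93.8% identical; 207 and 202 reads) and AT2G38380 and AT2G38390 (90.6%) are also near copies whose reads may be shared.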

How the data were processed

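RNA-seq libraries of whole inflorescences were read from 1 deposited table of 15 libraries; the 5 samples that the authors set aside as outliers were not analysed here. The authors trimmed, aligned and counted reads with cutadapt, HISAT2 and HTSeq, per the submitters' processing notes, and counting was unstranded per the deposited table's name. The deposited values are RPKM made by the authors per gene and library; the genome build behind them was not stated by any source at hand. Whole reads could be worked out for 29911 of 29911 genes above 0 (within 0.005 reads), and the gene lengths behind them equalled the reference exon length for 73.5%. Assigned reads ranged from 22471893 to 36589877 per library. Names, coordinates and sequences come from RefSeq TAIR10.1, in which 37051 of 37336 identifiers were found.

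The test was limma 3.58.1 (R 4.3.3) on log2(RPKM + 1), its variance prior following the mean level, over genes at 1 RPKM or more in 3 or more libraries, fitted on all libraries and tested on both sides in 7 comparisons; the fit was tested on simulated data. The labels call the replicates independent; where they shared growth conditions, p-values measure the spread between these samples only. The alternatives were another pseudocount, other filters and scalings, array weights, a fit of only the groups compared, a replicate block, voom on the recovered reads, and leaving out libraries. The members, gene lists and tests were chosen with earlier results of these data known. Members were given by library if among the 8 largest calls of a comparison with wild type, among the 5 of highest level, or one of the tapetum pair; others are marked as chosen after their values were seen, and AT4G37530, AT4G36430, AT5G40150, AT2G18150, PRX72 and AT2G22420 were chosen that way too.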

Additional observations from a re-analysis of the deposited data

Results flagged for a closer look

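The change from wild type differed between dvl1-1D and 35S:DVL8 in 10 peroxidases, by a direct test of the difference in limma. The difference, dvl1-1D minus 35S:DVL8 in log2(RPKM + 1), was 1.25 for PRX71, 0.83 for AT5G14130, 0.68 for PRXCA, 0.68 for AT5G39580, 0.66 for AT5G64110, 0.58 for AT3G21770, 0.58 for AT4G36430, 0.48 for AT4G37530, 0.45 for AT4G33420 and 0.32 for PRX53. In AT5G39580 the low values were those of 35S:DVL8, and in the other members except AT5G14130 the dvl1-1D libraries were raised over wild type by the test. AT5G64110 and AT4G36430 were among the tested genes through the dvl1-1D libraries, where they were high. With a filter on the mean level, 7 members differed, and the share of all genes was not counted.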

How the results depend on the processing

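Of 38 called member values (a member in a comparison), 28 kept their call in every alternative that could be run, 10 lost it in at least 1, and 0 reversed direction; 611 of 664 pairs of a value and an alternative kept the call. In 35S:DVL8 against wild type, where 0 members were called, array weights gave 1, fitting only the groups compared gave 1, voom gave 3, and leaving out both 35S:DVL8 replicate 2 and rtfl9 quintuple replicate 4 gave 1; leaving out single libraries gave 0 to 1. In the rtfl9 quintuple, where 1 was called, no filter, only the groups compared, the replicate block, voom and the fit without that pair of libraries each gave 0, and leaving out single libraries gave 0 to 1. With the replicate block, 15 members were called in dvl1-1D, 10 between dvl1-1D and 35S:DVL8, and 12 between the overexpression lines and the quintuple mutants. Shares of all genes called were counted only for the main fit, median-of-ratios scaling and quantile normalization. Member counts under the other alternatives, among them the replicate block, the filter on the mean and voom, therefore cannot be set against all genes. Correlated deviations over 0.1 were found in 3 of 23 same-numbered pairs of libraries, beside 15 of 67 others. The highest value, 0.381, was between replicate 4 of the dvl1 quintuple and replicate 4 of the rtfl9 quintuple. Each of these was the lowest of its group for AT3G03670, AT4G11290 and AT5G19880. A count over all numbers cannot show whether single numbers were paired. The share of all calls that were higher in dvl1-1D than in 35S:DVL8 was 57.3%, and 47.1% with median-of-ratios scaling; the members' split stayed at 10 higher and 0 lower. The cause of these changes was not tested. Genes near 1 RPKM (AT5G64110, AT4G36430, AT5G39580 and AT2G18150) are limited by few reads, and their changes move by over 1.5 times with a pseudocount of 0.1 or with voom.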
